A study of Mus musculus with 12 samples.

Results

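Livers labelled PPARγ-KO were compared between 5 and 2 months of a fast-food diet (FFD). The members were chosen by their labels and are 6 of the 12 RNA-seq libraries of the series, 3 from mice fed for 5 months and 3 from mice fed for 2 months. All mice were males with loxP-flanked Pparg that at 8 weeks of age received adeno-associated virus serotype 8 with Cre (labelled PPARγ-KO) or with GFP (labelled wild-type, WT) under the TBG promoter. TBG is active in hepatocytes, so Kupffer cells, stellate cells, endothelium and other cells of both groups keep the gene. The FFD supplied 42% of its energy as fat, with 0.2% cholesterol, 34% sucrose by weight and glucose and fructose in the drinking water, and no library from chow-fed liver was analysed here. The question is what changed in the liver transcriptome of Cre-treated mice as feeding went on, with the same interval in WT libraries set beside it. The older mice were also 3 months older, and the labels name the libraries of a group only as repeats, so p-values measure the spread between these libraries.

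Time on diet and a possible batch cannot be told apart in these data. A spreadsheet had turned 27 gene names of the deposited files into dates, with the year 2022 in each 2-month file and 2023 in each 5-month file, so the files of the 2 times were not saved together. The sources used here do not say if RNA extraction, library preparation or sequencing was also done on separate occasions. Every change given below is therefore a change between libraries of 5 months and of 2 months, whatever else set them apart.

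Pparg (chr6:115360951-115490399, mm10), which encodes the nuclear receptor the Cre vector was meant to remove, was measured first. Its normalized CPM (counts per 1e6 counts of the library after TMM scaling over the 12 libraries, with replicates 1, 2 and 3 in order throughout) were 50.4, 66.5 and 52.02 at 2 months and 86.5, 92.9 and 75.01 at 5 months in the libraries labelled PPARγ-KO. Levels at 5 months lay above those at 2 months without overlap (log2 fold change 0.59 ± 0.12 SE, edgeR adjusted p = 0.0044). WT libraries held 38.8, 41.4 and 37.6 at 2 months and 36.9, 41.4 and 37.1 at 5 months, with no call (-0.03, adjusted p = 0.77). Every library labelled PPARγ-KO was above every WT library of the same time, so the mRNA was not lower in livers labelled as knockout. The files count reads per gene and not per exon, so a transcript without the floxed exons cannot be told from an intact one, and non-hepatocytes keep Pparg. The paper reports from Western blots that PPARγ protein was lost in its knockout livers at both times. That is a measure of protein, whereas mRNA is counted here. Whether labels were exchanged was not tested, and every difference between the genotypes rests on the labels. Cidec, a known target of PPARγ chosen after its values were seen, was lower in every library labelled PPARγ-KO (13.4, 7.52 and 10.05 at 2 months and 26.5, 21.99 and 17.2 at 5 months) than in any WT library (99.8, 177 and 172 and 148, 142 and 141). The group is called by its label throughout. The change of Pparg over time differed from WT by 0.62 ± 0.15, adjusted p = 0.043, a call kept in 3 of 12 fits that each left out 1 library.

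PPARγ is scarce in healthy hepatocytes and rises in fatty liver, where it drives genes of fat uptake and of the lipid droplet coat. On a diet rich in fat, cholesterol and sugar, hepatocytes store triglyceride, resident Kupffer cells are partly replaced by monocyte-derived, lipid-associated macrophages that carry TREM2 and GPNMB, and stellate cells deposit matrix. Much of liver metabolism also runs on a daily clock in which BMAL1 (encoded by Arntl) and CLOCK switch on the Per and Cry genes, whose products switch them off again.

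A large share of all genes differed between the times. Of 14478 genes tested in the 6 libraries, 44.9% passed an adjusted p of 0.05 (edgeR's quasi-likelihood test), 22.7% higher and 22.2% lower at 5 months, and 55.6% had libraries that did not overlap between the times. Among the calls, 557 genes were more than 2-fold higher and 729 more than 2-fold lower. WT livers gave a similar share, with 46.4% of 14491 genes called, 23.8% higher and 22.7% lower. Of 14118 genes tested in both genotypes, 4670 were called in both, which is 72.9% of the calls in libraries labelled PPARγ-KO and 70.5% of those in WT, and 4641 of them moved in the same direction. The difference between the 2 changes, tested in all 12 libraries, was called for 1.57% of 15127 genes, 0.661% with a change shifted upward relative to WT and 0.912% shifted downward. A list of genes is read against these shares below, and the genotypes share no library. A range in parentheses after a list's count is that over fits that each left out 1 library.

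Broad features of the libraries moved with time as well. Ribosomal RNA genes took 0.214% to 0.247% of the counts at 2 months and 0.868% to 0.911% at 5 months in the libraries labelled PPARγ-KO, and from 0.193% to 0.238% and from 0.652% to 0.850% in WT. Long noncoding RNAs took 0.487% to 0.517% at 2 months and 0.343% to 0.413% at 5 months, and mitochondrial genes 5.49% to 5.71% and 4.71% to 5.30%. Changes also followed gene length. When genes were cut by length into 10 bins of equal size, the bin of shortest genes (57 to 1296 bases) had a median log2 fold change of 0.35 and the bin of longest genes (9479 to 123179 bases) one of -0.28, as the plot of change by gene length shows, and WT gave 0.47 and -0.33. Called genes that were higher at 5 months had a median length of 2782 bases, against 5919 bases for those that were lower. The part of RNA quality or library preparation in any single result was not tested. An alternative that takes out the trend of each library on gene length is given beside the counts it moved most.

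**Figure D1:**
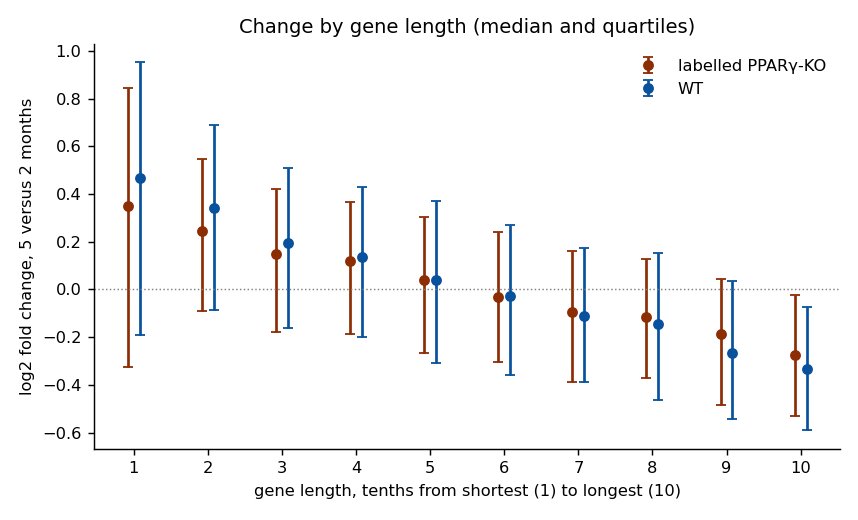
Log2 fold change, 5 versus 2 months, in 10 bins of gene length from shortest (1) to longest (10), with the median (point) and quartiles (bar) over genes in libraries labelled PPARγ-KO and in WT. The median fell from 0.35 to -0.28 in libraries labelled PPARγ-KO and from 0.47 to -0.33 in WT.

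The tissue matched its label. The 10 hepatocyte markers summed to between 80687 and 96203 CPM over the 6 libraries, and 3 of them rose (1 to 2) and none fell (0 to 1, Fgb 0.46, Cyp3a11 0.80, Apoa1 0.40, kept in 1 of 6 fits). Adipocyte markers were absent, with 5 of 6 at 0 counts in all 6 libraries. Exocrine pancreas markers summed to 7.02 to 17.3 CPM, nearly all Cela1, and those of skeletal and smooth muscle to 1.64 to 6.50 CPM, with no call in either list. Of 5 genes that check the male sex of the mice 4 were tested and 1 was lower.

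**Figure D2:**
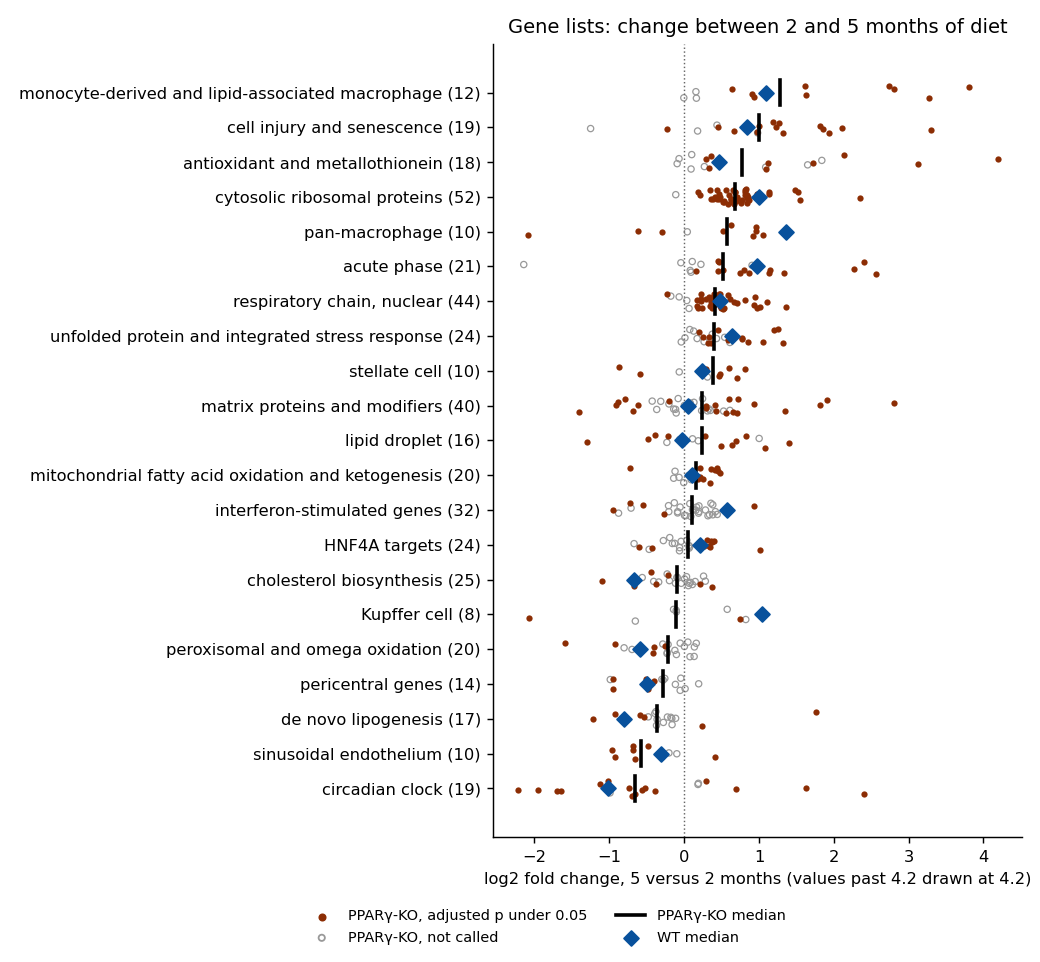
Log2 fold change, 5 versus 2 months, for the members of 21 gene lists in libraries labelled PPARγ-KO (filled points passed an adjusted p of 0.05, open points did not), with the list's median (bar), the WT median (diamond) and the number of members tested in parentheses. Medians ran from 1.27 for lipid-associated macrophages down to -0.66 for the clock, and the point at 4.2, the axis limit, is Mt2.

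The largest rises included an interferon and cytokine target, genes of cell arrest and injury, and genes of lipid-laden macrophages. Cdkn1a, which encodes the cell cycle inhibitor p21, stood at 6.47, 7.35 and 8.74 at 2 months and 61.1, 61.4 and 102 at 5 months (3.30 ± 0.28, adjusted p = 0.00052). Ubd, an inflammation-induced ubiquitin-like protein, was at 0.724, 1.20 and 1.82 at 2 months and 26.9, 16.3 and 12.8 at 5 months (3.85 ± 0.43, adjusted p = 0.001). Sprr1a, an envelope protein induced by stress in epithelium, went from 0.673, 2.17 and 0.335 to 16.1, 19.6 and 16.5 (4.15 ± 0.51, adjusted p = 0.0018). In all 3 genes the libraries of both times lay far apart. Among the other large rises, Gpnmb, Cd63 and Mt2 are taken up with their lists. Cbr3, a carbonyl reductase, rose by 4.04 ± 0.59, and Gipc2, Tinag and Lrtm2 rose from under 0.5 CPM in every library at 2 months (Gipc2 4.68 ± 0.40, Tinag 4.84 ± 0.60 from 6 counts in all, Lrtm2 3.74 ± 0.58). None of these 7 genes had a change that was called different from WT.

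The gene of the mitochondrial leucyl-tRNA synthetase rose from a moderate to a very high level. Lars2 (chr9:123366927-123462666) was at 97.3, 95.9 and 94.3 at 2 months and 2079.9, 1756 and 2083 at 5 months (4.36 ± 0.09, adjusted p = 1.3e-10), and in WT at 142, 122 and 115 at 2 months and 1635, 1136 and 1084 at 5 months (3.34, adjusted p = 2.6e-06). It moved with the annotated ribosomal RNA gene CT010467.1 on chromosome 17, which stood at 1355, 1538 and 1376 at 2 months and 7088, 7844 and 7229 at 5 months (2.37 ± 0.08). Whether reads of ribosomal origin were counted on Lars2 was not tested. The ribosomal protein pseudogene Rpl10-ps3 (3.58 ± 0.36) shares sequence with its parent gene, and its count is uncertain.

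The largest falls included major urinary proteins, a steroid dehydrogenase, a sulfotransferase and a feedback inhibitor of cytokine signaling. Mup8, 1 of a family of near-identical major urinary proteins and so uncertain in its count, was at 6.21, 1.25 and 5.06 at 2 months and 0.189, 0.0513 and 0.126 at 5 months (-5.03 ± 0.84, adjusted p = 0.0031), and Mup19 fell by 2.76. Hsd3b5, a male-biased steroid dehydrogenase, was at 87.5, 16.2 and 54.96 at 2 months and 5.71, 0.256 and 1.26 at 5 months (-4.39 ± 1.14, adjusted p = 0.039). Its libraries at 2 months spread widely, and the call held in 1 of 6 fits that left out a library. Cish, a feedback inhibitor of STAT5 signaling that growth hormone induces, was at 7.19, 3.42 and 5.84 at 2 months and 0.944, 1.44 and 1.07 at 5 months (-2.26 ± 0.30, adjusted p = 0.00015). Sult5a1, a sulfotransferase, went from 13.6, 8.49 and 9.71 to 1.70, 0.564 and 0.820 (-3.33 ± 0.35, adjusted p = 0.00012), and Fads3, a relative of the fatty acid desaturases, from 117, 74.8 and 123 to 30.1, 21.3 and 20.8 (-2.12 ± 0.26, adjusted p = 0.0026). Onecut1, a liver transcription factor, was at 12.4, 6.38 and 18.6 at 2 months and 1.27, 2.82 and 2.59 at 5 months (-2.52 ± 0.52, adjusted p = 0.013), a call kept in 5 of 6 fits. Lower by similar amounts were Vmn1r90 (-2.80), Mroh6 (-2.27), Fam167a (-2.25) and Dlec1 (-2.24, kept in 3 of 6 fits), besides the clock gene Per3.

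Clock genes moved in both directions, activators up and most repressors and outputs down. Of 19 members, all tested, 4 were higher and 12 lower at 5 months, and 17 did not overlap between the times, with a median of -0.66 against -0.01 over all genes. The activator Arntl was at 3.16, 4.27 and 2.57 at 2 months and 8.59, 9.94 and 12.2 at 5 months (1.63 ± 0.20, adjusted p = 9.1e-05), and its partner Npas2 at 0.673, 0.969 and 0.335 at 2 months and 2.45, 3.02 and 4.67 at 5 months (2.40 ± 0.39, adjusted p = 0.00051). Clock itself rose by 0.29 ± 0.07, and Nfil3, a repressor of D-box genes, by 0.70 ± 0.11. Per3, a repressor of the loop, was at 60.6, 53.5 and 69.7 at 2 months and 16.5, 14.7 and 7.76 at 5 months (-2.23 ± 0.29, adjusted p = 0.0029), Per2 at 70.8, 95.2 and 85.7 at 2 months and 32.6, 24.3 and 20.3 at 5 months (-1.70 ± 0.20, adjusted p = 0.0012) and Per1 at 52.3, 76.8 and 72.1 at 2 months and 37.04, 30.3 and 32.05 at 5 months (-1.02 ± 0.15, adjusted p = 0.0016). Dbp, an output factor that binds the D-box, was at 121, 109.9 and 131 at 2 months and 50.1, 35.4 and 30.7 at 5 months (-1.64 ± 0.19, adjusted p = 0.0012), and its relative Tef at 236, 225 and 259 at 2 months and 130.3, 106 and 93.9 at 5 months (-1.13 ± 0.12, adjusted p = 0.00016). Among the others that fell were Bhlhe41 (-1.96), Nr1d2 (-0.70), Nr1d1 (-0.53), Cry2 (-0.56), Hlf (-0.39) and Bhlhe40 (-0.66, kept in 2 of 6 fits). No call was made for Cry1 (0.19), Rora (0.19) and Ciart (-0.99, adjusted p = 0.12).

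WT libraries had 4 higher, 13 lower and a median of -1.01. The change was less negative in libraries labelled PPARγ-KO than in WT for Cry2 (difference 0.63, adjusted p = 0.036), Hlf (0.52, adjusted p = 0.021) and Ciart (2.79, adjusted p = 0.034), and the number of such members ran from 0 to 4 over the alternatives. Mice were housed under a light and dark cycle of equal parts, and the hour at which livers were taken is not given in the sources used here, so time on diet and hour of collection cannot be told apart for these genes.

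**Figure D3:**
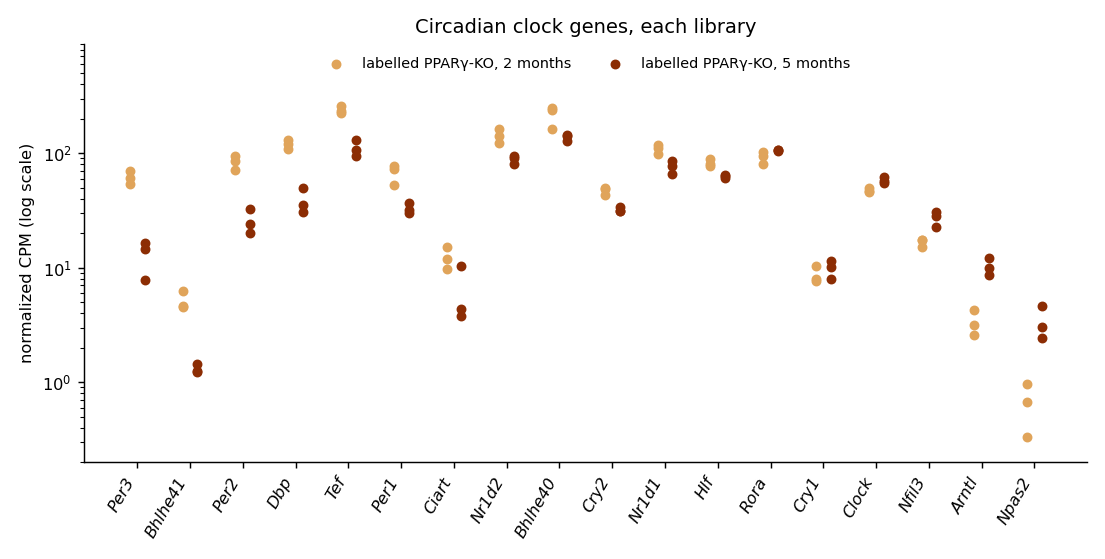
Normalized CPM (log scale) of 18 circadian clock genes in each library labelled PPARγ-KO, ordered from the largest fall (Per3, -2.23) to the largest rise (Npas2, 2.40). Points of both times are separate for 16 genes and overlap for Cry1 and Ciart.

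The promoters of Per1, Per3 and Tef, genes that fell, are shown because the letters of the 2 motifs that BMAL1 and DBP are known to bind can be read in them, together or alone. They are not the members that moved most. The windows reach from 250 bases before to 50 after a RefSeq start (GRCm38.p6), and 16 of the 19 members had at least one. A gene with several starts was counted if any of its windows held the motif, and its window with the most matches is shown. Capitals mark the E-box CACGTG, or the D-box TTATGTAA or TTATGCAA, searched on both strands. The E-box was found in 5 of the 16 members (Bhlhe41, Ciart, Cry1, Per1, Tef) against 8.09% of 27025 genes, and the D-box in 2 (Per1, Per3) against 1.98%. An E-box was also found in 4 of 17 genes of cholesterol synthesis and 3 of 23 of the unfolded protein list, and a D-box in 0 of either. The sterol response element TCACCCCAC was found in 1 of 17 genes of cholesterol synthesis, 1 of 23 of the unfolded protein list and 0 clock genes. It occurred in 0.614% of all genes. The CRE, TGACGTCA, was found in 0 of 17, 1 of 23 and 1 of 16 (Hlf), against 2.03%. The stretch of Per1 is chr11:69098753-69098948 (plus strand), that of Per3 chr4:151044786-151044900 (minus strand) and that of Tef chr15:81802516-81802581 (plus strand).
Per1: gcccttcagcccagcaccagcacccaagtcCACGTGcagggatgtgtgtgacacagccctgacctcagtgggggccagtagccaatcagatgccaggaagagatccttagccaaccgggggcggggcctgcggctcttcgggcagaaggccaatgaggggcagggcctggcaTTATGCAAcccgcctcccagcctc
Per3: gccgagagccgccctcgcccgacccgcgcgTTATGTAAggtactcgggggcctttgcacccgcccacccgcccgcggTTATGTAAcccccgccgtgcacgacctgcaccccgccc
Tef: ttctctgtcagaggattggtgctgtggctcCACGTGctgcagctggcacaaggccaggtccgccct
Per1 holds both motifs, Per3 the D-box at 2 places and Tef the E-box alone. Of the members with either motif, Per1, Per3, Tef and Bhlhe41 were lower at 5 months, and Cry1 and Ciart were not called. Whether the motifs bear on the direction of change was not tested.

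The machinery that folds secreted proteins was higher at 5 months. Of 24 members of the unfolded protein and integrated stress response, 14 rose and none fell, with a median of 0.40 (WT 19 and 0, 0.64, with no member called different). Pdia6, a disulfide isomerase of the endoplasmic reticulum, was at 205, 207 and 211 at 2 months and 365, 355 and 347 at 5 months (0.77 ± 0.05, adjusted p = 2e-06). Sdf2l1, a cofactor of the chaperone BiP, was at 14.1, 13.5 and 17.97 at 2 months and 36.5, 40.5 and 37.5 at 5 months (1.32 ± 0.11, adjusted p = 5.8e-06). Dnajb11 rose by 0.59 ± 0.06, Calr (calreticulin) by 0.32 ± 0.06 and Trib3, a target of the stress factor CHOP, by 1.20 ± 0.20. Hspa5, which encodes BiP, Hsp90b1 and Creld2 were added after their values were seen, because their promoters are shown. Hspa5 was at 550.1, 703 and 672 at 2 months and 1211, 1167 and 934 at 5 months (0.78 ± 0.12, adjusted p = 0.0013), Hsp90b1 rose by 0.35 ± 0.07, and Creld2 by 1.05 ± 0.31 (kept in 2 of 6 fits). Among 12 heat shock genes, which serve folding in the cytosol, 3 rose and 2 fell (1 to 4), with Hspe1 at 0.96 ± 0.08 and Hspa1a, a stress-induced HSP70, at -2.12 ± 0.33.

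The endoplasmic reticulum stress element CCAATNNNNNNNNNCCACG, which NF-Y and ATF6 are known to bind, was searched after these values were seen. It was found in 7 of 23 members with a promoter (Calr, Canx, Creld2, Dnajc3, Hsp90b1, Hspa5, Pdia6) against 0.137% of 27025 genes. Capitals mark the element on either strand in Hspa5 (chr2:34771995-34772073, plus strand), Hsp90b1 (chr10:86705503-86705686, minus strand) and Creld2 (chr15:88819490-88819568, plus strand).
Hspa5: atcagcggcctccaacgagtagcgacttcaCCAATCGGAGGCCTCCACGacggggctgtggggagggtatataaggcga
Hsp90b1: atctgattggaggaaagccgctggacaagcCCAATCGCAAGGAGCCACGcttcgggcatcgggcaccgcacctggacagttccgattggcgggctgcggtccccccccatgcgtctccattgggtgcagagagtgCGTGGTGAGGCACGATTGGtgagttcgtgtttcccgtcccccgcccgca
Creld2: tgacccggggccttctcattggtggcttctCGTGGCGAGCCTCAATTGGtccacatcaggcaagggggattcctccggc
Hsp90b1 holds the element at 2 places, once on each strand, and the others at 1. A match is a description of the letters, and binding was not measured here.

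Acute phase proteins, which the hepatocyte secretes under cytokine signals, rose as a group. Of 21 members tested (of 22), 14 were higher and none was lower, with a median of 0.52. Saa2, a serum amyloid A with a near-identical neighbour in Saa1, was at 33.8, 38.9 and 34.2 at 2 months and 159.9, 164 and 191 at 5 months (2.27 ± 0.09, adjusted p = 6.7e-08). Hp (haptoglobin) was at 1775, 2068 and 1939.9 at 2 months and 4374, 4136 and 4149.9 at 5 months (1.13 ± 0.07, adjusted p = 1.3e-06). Lcn2, an iron-siderophore binder, was at 20.03, 23.9 and 16.00 at 2 months and 111, 89.7 and 115 at 5 months (2.40 ± 0.17, adjusted p = 5.4e-05), Orm1 rose by 0.74 ± 0.08 and Crp by 0.52 ± 0.06. WT had 18 members higher and a median of 0.97. The change was called lower than in WT for 6 members and higher for none, a number between 1 and 11 over the alternatives. Hpx (hemopexin) was at 2584, 3073 and 3054 at 2 months and 5981, 5000.4 and 5001 at 5 months (0.87 ± 0.09), whereas WT rose by 1.57 (difference -0.70, adjusted p = 0.024). Saa3 rose by 1.33 ± 0.19 against 3.05 in WT (difference -1.71, adjusted p = 0.0046). The others were Orm1 (difference -0.55), Itih3 (-0.86), Itih4 (-0.70) and Steap4 (-0.47).

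Hepcidin, encoded by Hamp, was looked at after its values were seen, because the 3 libraries at 5 months were all below those at 2 months without a call. It stood at 138, 161 and 113 at 2 months and 5.10, 53.97 and 34.5 at 5 months (-2.14 ± 0.85, adjusted p = 0.11), and WT at 285, 69.7 and 132 at 2 months and 271, 209 and 208 at 5 months. Replicate 1 at 5 months was the lowest by far.

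Chemokines and cytokines were called about as often as all genes. Of 34 tested (of 37), 11 rose and 6 fell, which is 50% called against 44.9% of all genes. Ccl6, a chemokine of macrophages, was at 7.66, 8.55 and 8.07 at 2 months and 25.2, 24.4 and 24.4 at 5 months (1.61 ± 0.09, adjusted p = 8.5e-07), and Il1a fell by 1.41. Cxcl13, a B cell chemokine, was at 3.67, 0.912 and 1.23 at 2 months and 0, 0.256 and 0.126 at 5 months (-3.89 ± 0.89, adjusted p = 0.009), and its change differed from WT by -5.42, adjusted p = 0.013. Among 32 interferon-stimulated genes 1 rose (Ifi27l2a, 0.94 ± 0.16) and 4 fell (Stat2, a transducer of the interferon receptor, by 0.72), and 1 to 8 rose when each library was left out. WT had 18 higher and 5 lower, but no member's difference was called. MHC class II presentation had 4 of 9 members higher and 1 lower, led by the lysosomal protease Ctss (1.01 ± 0.13), and leaving out a library gave 2 to 7 higher, and taking out the length trend 2.

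Markers of injured and arrested cells were higher in 14 of 19 members tested (of 21) and lower in 1, with a median of 1.00 (WT 0.84). Lgals3 (galectin-3), made by macrophages and injured epithelium, was at 8.28, 8.04 and 9.75 at 2 months and 29.6, 34.5 and 30.9 at 5 months (1.86 ± 0.10, adjusted p = 8.5e-07). Anxa5, an annexin, was at 113, 133 and 110.5 at 2 months and 287, 296 and 278 at 5 months (1.27 ± 0.08, adjusted p = 1.1e-06). Krt8, a keratin of the hepatocyte and bile duct, was at 251, 288 and 265 at 2 months and 516, 529 and 565 at 5 months (1.00 ± 0.07, adjusted p = 1.7e-06), and S100a11 rose by 1.31 ± 0.10. The exception was Mdm2, a p53 target and regulator, at -0.23 in libraries that nearly touch (kept in 2 of 6 fits). None of these changes was called different from WT.

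Antioxidant and metallothionein genes rose in 10 of 18 members and fell in none, with a median of 0.78 (6 to 13 higher when each library was left out). Gpx4, which reduces lipid peroxides, was at 189, 204 and 183 at 2 months and 408, 444 and 396 at 5 months (1.11 ± 0.07, adjusted p = 1.1e-06). Mt1 (metallothionein 1) was at 18.01, 25.9 and 21.4 at 2 months and 63.7, 57.7 and 94.9 at 5 months (1.73 ± 0.25, adjusted p = 0.0036). Mt2 (chr8:94172664-94173568) had 0 counts in all 3 libraries at 2 months and 202 counts at 5 months, at least 75.9-fold higher against a floor of 3 counts over the group. WT had 1 count at 2 months and 1.78, 1.81 and 2.14 CPM at 5 months. Sod1 rose by 0.36 ± 0.06 and Gclc, which makes glutathione, by 0.46 ± 0.09. Nfe2l2, the gene of NRF2, an activator of antioxidant genes, fell from 122, 116 and 104 at 2 months to 73.2, 74.1 and 78.5 at 5 months (-0.60 ± 0.07, adjusted p = 6.3e-05).

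Macrophage genes split by kind. In bulk tissue, fewer cells of a type and less RNA per cell cannot be told apart. Of 12 markers of monocyte-derived and lipid-associated macrophages, 9 rose and none fell (median 1.27, WT 8 and 0, 1.09), and their summed level went from 107 to 131 CPM at 2 months to 388 to 456 CPM at 5 months. Spp1 gave a large part of that sum at both times, and Cd63 a further part at 5 months. Trem2, a lipid receptor, was at 1.19, 1.94 and 1.04 at 2 months and 6.84, 11.02 and 9.53 at 5 months (2.74 ± 0.26, adjusted p = 1.8e-05). Gpnmb was at 1.86, 4.67 and 1.27 at 2 months and 28.9, 42.4 and 32.8 at 5 months (3.81 ± 0.47, adjusted p = 0.0029). Cd63, a lysosomal and exosomal tetraspanin, was at 6.26, 6.21 and 7.07 at 2 months and 64.3, 69.1 and 57.2 at 5 months (3.28 ± 0.10, adjusted p = 4.7e-09), the smallest p of the list. Spp1 (osteopontin), also made by bile duct cells, was at 56.6, 72.2 and 74.3 at 2 months and 197, 234 and 193 at 5 months (1.62 ± 0.12, adjusted p = 2.9e-05), and Cd9 rose by 0.93 ± 0.09. For these 5 genes the times did not overlap, and no member of the list was called different from WT.

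Resident Kupffer cell markers gave few calls. Of 8 markers 1 rose (1 to 2) and 1 fell (1 to 3), with a median of -0.11, and their sum stayed between 441 and 554 CPM at 2 months and 542 and 613 CPM at 5 months. Part of that sum was C6, at 192, 113 and 166 at 2 months and 196, 95.1 and 136 at 5 months. Marco spread widely, at 14.7, 4.10 and 10.9 at 2 months and 2.26, 36.95 and 5.30 at 5 months, where replicate 2 was highest. Neither gene was called. In WT 5 of 8 rose, with a median of 1.04 and a sum that went from 438 to 458 CPM to 1021 to 1046 CPM. Clec4f, the C-type lectin that defines Kupffer cells, was at 135, 129 and 134 at 2 months and 104, 133 and 134 at 5 months (-0.10 ± 0.09, adjusted p = 0.39) and in WT at 109, 114 and 98.1 at 2 months and 225, 211 and 208 at 5 months (difference -1.10 ± 0.13, adjusted p = 0.00099). Vsig4, a complement receptor, was at 34.5, 34.1 and 37.5 at 2 months and 26.9, 41.00 and 30.9 at 5 months and in WT at 29.1, 31.4 and 28.7 at 2 months and 58.8, 63.8 and 66.5 at 5 months (difference -1.19 ± 0.17, adjusted p = 0.0046). Timd4, a receptor for dying cells on long-lived Kupffer cells, was at 12.8, 10.5 and 12.4 at 2 months and 1.93, 4.92 and 1.58 at 5 months (-2.07 ± 0.39, adjusted p = 0.0064), while WT held 7.25, 6.64 and 5.63 at 2 months and 6.87, 7.63 and 7.88 at 5 months (difference -2.27 ± 0.41, adjusted p = 0.017). Cd5l rose from 159, 139 and 155 to 242, 291 and 228 (0.74 ± 0.09), by less than in WT (difference -1.04, adjusted p = 0.011), and Folr2 differed by -1.81, adjusted p = 0.014. In all, the change was called lower than in WT for 5 of the 8 markers, and for 3 to 5 over the alternatives, against 0.912% of all genes.

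A list of general macrophage genes had a median of 0.57, between the medians of the Kupffer cell and lipid-associated lists, though its members did not move alike. Of 10 members 6 rose and 3 fell, and 4 were called lower than in WT (3 to 10 over the alternatives). C1qa, a subunit of complement C1q, was at 48.4, 42.7 and 51.1 at 2 months and 93.8, 100.2 and 83.6 at 5 months (0.96 ± 0.09, adjusted p = 9.5e-06), C1qc rose by 0.95 ± 0.08 and C1qb by 0.92 ± 0.11, as did Mpeg1 (0.63 ± 0.09) and Cd68 (0.52 ± 0.10). WT rose further for C1qa (difference -0.86, adjusted p = 0.011) and C1qc (-0.86, adjusted p = 0.016). Cd163, the hemoglobin scavenger receptor, was at 24.7, 24.1 and 29.9 at 2 months and 5.14, 6.77 and 6.69 at 5 months (-2.09 ± 0.13, adjusted p = 1.3e-06), and WT at 14.5, 11.5 and 14.5 at 2 months and 13.9, 7.93 and 8.56 at 5 months (difference -1.67 ± 0.27, adjusted p = 0.0095). Mrc1, the mannose receptor, fell by 0.62. Csf1r, the receptor for the growth factor of macrophages, fell by 0.30 (kept in 2 of 6 fits) and differed from WT by -0.92, adjusted p = 0.011.

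**Figure D4:**
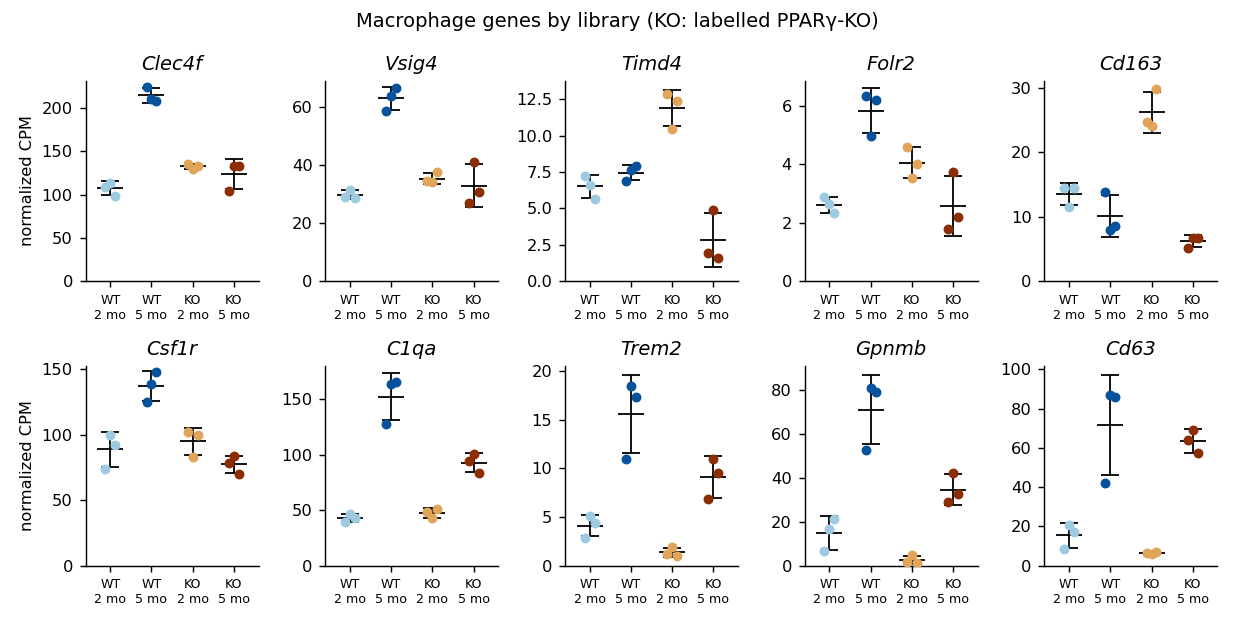
Normalized CPM of 10 macrophage genes in each library, with the mean and SD of each group (n = 3). Clec4f stayed between 104 and 135 in libraries labelled PPARγ-KO and went from 109, 114 and 98.1 to 225, 211 and 208 in WT, and Trem2, Gpnmb and Cd63 were higher at 5 months in both genotypes.

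Many markers of other immune cells were too low to test. T and NK cell genes had 1 higher (0 to 3) of 6 tested (of 13), B and plasma cell genes 1 lower (1 to 2) of 6 (of 9), dendritic cell genes 2 lower (1 to 3) of 7, and neutrophil genes 2 higher and 1 lower of 3 (of 8), with summed levels under 17 CPM for T and NK cells and under 8 CPM for neutrophils. Erythroid genes rose in 4 of 6 members tested (of 7). Hba-a2, 1 of 2 near-identical alpha globin genes, was at 3.10, 5.36 and 3.65 at 2 months and 41.5, 30.8 and 21.4 at 5 months (2.97 ± 0.33, adjusted p = 0.0012), and the erythroid sum ran from 243 to 343 CPM at 2 months and from 360.0 to 661 CPM at 5 months. How much blood the pieces of liver held was not measured.

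Of the 16 regulators followed, 3 that act in lipid metabolism are given first. Mlxipl, which encodes the carbohydrate sensor ChREBP, was at 481, 437 and 459 at 2 months and 212, 170.1 and 209.5 at 5 months (-1.22 ± 0.09, adjusted p = 2.4e-06). Srebf1, the gene of the insulin-driven lipogenic factor SREBP-1c, was at 1247, 1227 and 896 at 2 months and 620.0, 687 and 473 at 5 months (-0.92 ± 0.19, adjusted p = 0.011). Ppara, the receptor that drives fatty acid oxidation, was at 302, 238 and 314 at 2 months and 139, 139.6 and 155 at 5 months (-0.98 ± 0.10, adjusted p = 8.4e-05). For each of the 3 the libraries of both times were apart, and WT fell as well (Mlxipl -1.20, Srebf1 -0.59, Ppara -1.5), with no difference called. Ppard rose by 0.40 ± 0.12 (kept in 3 of 6 fits) and Bcl6, a repressor of fasting genes, by 0.72 ± 0.11, while the glucocorticoid receptor gene Nr3c1 fell by 0.24. Hnf4a, the master factor of the hepatocyte, was at 549, 584 and 572 at 2 months and 615, 596 and 644 at 5 months and was not called (0.12 ± 0.06, adjusted p = 0.13). Neither were Srebf2 (0.07), Nr1h3 (0.09), Nr1h4 (-0.10), Foxo1 (0.03), Cebpa (-0.04), Cebpb (0.49, adjusted p = 0.066) and Stat5b (-0.05).

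Fewer enzymes of fatty acid synthesis were called. De novo lipogenesis had 2 higher and 4 lower of 17 members, which include Srebf1 and Mlxipl, and 2 to 8 lower when each library was left out. Fasn (fatty acid synthase) was at 3446, 2950.0 and 2806 at 2 months and 1923, 2567 and 1625 at 5 months (-0.59 ± 0.18, adjusted p = 0.039), with replicate 2 at 5 months close to the lowest library at 2 months, and the call held in 2 of 6 fits. Scd2, a desaturase, went the other way at 20.4, 22.5 and 17.4 at 2 months and 43.6, 85.6 and 75.4 at 5 months (1.76 ± 0.30, adjusted p = 0.0083). Fads2 fell by 0.54 and Elovl1 rose by 0.24. In WT 1 was higher and 15 were lower (median -0.81 against -0.36), yet no member's difference was called.

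Few genes of cholesterol synthesis and uptake were called. Of 25 members 2 rose (0 to 4), among them Mvd (0.37), and 5 fell, with a median of -0.09, and leaving out each library gave 3 to 9 lower. WT had 15 lower, none higher and a median of -0.67. Stard4, which carries cholesterol between membranes, was at 147, 108 and 152 at 2 months and 84.9, 91.3 and 81.4 at 5 months (-0.66 ± 0.13, adjusted p = 0.004), and its libraries of both times did not overlap.

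Of 16 lipid droplet genes tested (of 18) 7 were higher (4 to 7) and 4 lower (1 to 4). Plin5, the perilipin that ties droplets to mitochondria, was at 28.05, 29.1 and 33.1 at 2 months and 87.3, 71.2 and 81.1 at 5 months (1.40 ± 0.09, adjusted p = 1.3e-06), and Plin3 at 52.5, 50.8 and 55.6 at 2 months and 94.2, 93.1 and 94.6 at 5 months (0.82 ± 0.06, adjusted p = 2.9e-06). Cidec, which fuses droplets, rose with time in the libraries labelled PPARγ-KO (1.08 ± 0.24, adjusted p = 0.011) and was not called in WT (-0.06, adjusted p = 0.84). The difference in change was not called for any member of the list, Cidec included (1.15, adjusted p = 0.19). Pnpla3 fell by 1.3 (kept in 1 of 6 fits) and Mgll, the monoglyceride lipase, by 0.39. Fatty acid uptake had 7 of 15 higher and 2 lower, and taking out the length trend left 6 and 4. Fabp4, a fatty acid binder of macrophages and fat cells, was at 9.57, 10.7 and 10.9 at 2 months and 32.4, 26.7 and 23.8 at 5 months (1.41 ± 0.12, adjusted p = 6.7e-06), Lpl (lipoprotein lipase) rose by 1.14 ± 0.15 and Acsl1, which activates fatty acids, fell by 0.76. Triglyceride synthesis had 2 higher (1 to 3) and 1 lower (1 to 2) of 14. Lpin3, a phosphatidate phosphatase, was at 8.18, 7.47 and 8.56 at 2 months and 7.55, 8.15 and 9.72 at 5 months (0.06 ± 0.14, adjusted p = 0.75) and differed from WT by 0.83, adjusted p = 0.041, a call kept in 2 of 12 fits.

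Of 20 members of mitochondrial fatty acid oxidation 10 rose (7 to 11) and 1 fell, which became 8 and 3 without the length trend and 7 and 3 with library size scaling, with rises between 0.19 (Acaa2, -0.092 without the length trend) and 0.48 (Acadvl) on the log2 scale, such as Etfa (0.45 ± 0.05) and Hadh (0.43 ± 0.06). The fall was in Cpt1a, which admits fatty acids to the mitochondrion and is a PPARα target, at 753, 680.0 and 878 at 2 months and 462, 456 and 479 at 5 months (-0.73 ± 0.09, adjusted p = 6.2e-05). Of 20 peroxisomal and omega oxidation members none rose and 5 fell (4 to 7), which is 25% against 22.2% of all genes (WT 0 and 13). Acot3, a peroxisomal thioesterase, was at 10.9, 9.06 and 11.5 at 2 months and 3.30, 3.84 and 3.28 at 5 months (-1.60 ± 0.15, adjusted p = 1.6e-05), and its fall was smaller than in WT, where it went from 29.7, 54.7 and 29.8 to 2.13, 2.91 and 2.87 (difference 2.25 ± 0.36, adjusted p = 0.011). Acot4 fell by 0.92, with a difference of 1.24 kept in 5 of 12 fits. Acot genes share sequence, so their counts are uncertain.

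Bile acid genes had 2 of 16 tested (of 17) higher and 6 lower (3 to 6), which is 50% called against 44.9% of all genes. Nr0b2, which encodes the bile acid-induced repressor SHP, was at 35.8, 30.9 and 28.6 at 2 months and 87.00, 83.8 and 74.8 at 5 months (1.37 ± 0.09, adjusted p = 1.7e-06), and Baat rose by 0.36. Slc10a1, the bile acid importer NTCP, was at 740.3, 633 and 809.9 at 2 months and 408, 407 and 343 at 5 months (-0.92 ± 0.10, adjusted p = 8.1e-05), and Abcc2, a canalicular exporter, fell by 0.68 (difference from WT 0.49). Cyp8b1, the 12-alpha-hydroxylase of cholic acid, was at 304, 316 and 346 at 2 months and 309, 409 and 296 at 5 months and not called (0.07, adjusted p = 0.69), whereas WT went from 380.3, 340.0 and 258 to 156, 131 and 131 (difference 1.3 ± 0.21, adjusted p = 0.013). Taking out the length trend turned the sign of the first of these values, to -0.15.

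Genes for ribosomes and for the respiratory chain rose almost as whole families. Of 52 cytosolic ribosomal protein genes 51 were higher and none was lower, with a median of 0.68, and WT gave 51 and 0 with 1.00. Rpl35 was at 32.5, 34.3 and 31.2 at 2 months and 96.01, 90.9 and 86.4 at 5 months (1.48 ± 0.07, adjusted p = 2.6e-07), Rpl18 rose by 0.98 ± 0.05 and Rps28 by 1.54 ± 0.10. The rise was smaller than in WT for 8 members (Rplp1, Rpl11, Rps7, Rpl32, Rps14, Rps15, Rps24 and Rpsa, differences from -0.57 to -0.35), a number between 2 and 28 over the alternatives. These are short genes with many processed copies. Taking out the length trend left 46 higher and 1 lower at a median of 0.49. Of 44 nuclear genes of the respiratory chain 39 rose and 1 fell (median 0.41), such as Ndufa2 at 40.3, 42.3 and 46.7 at 2 months and 94.9, 92.2 and 92.9 at 5 months (1.11 ± 0.07, adjusted p = 1.3e-06) and Uqcrq (0.81 ± 0.06), but the length alternative left 25 higher and 2 lower. The part of gene length in the remaining calls was not tested.

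Endothelial genes of the liver sinusoid fell. Of 10 markers 7 were lower and 1 higher, with a median of -0.57 and a sum that went from 492 to 554 CPM to 342 to 363 CPM. Kdr, the VEGF receptor, was at 75.2, 73.5 and 76.8 at 2 months and 38.7, 42.5 and 34.8 at 5 months (-0.96 ± 0.08, adjusted p = 5e-06). Stab1, a scavenger receptor, was at 83.6, 86.1 and 101 at 2 months and 47.1, 46.4 and 48.7 at 5 months (-0.93 ± 0.08, adjusted p = 6.4e-06), and Stab2 fell by 0.68. Lyve1 rose by 0.42 (kept in 4 of 6 fits). WT fell as well (5 of 10), and for Fcgr2b, an inhibitory Fc receptor, the change was lower than in WT (47.5, 51.1 and 59.2 to 34.02, 31.2 and 33.6, difference -0.58, adjusted p = 0.014). Clec4g was at 34.8, 37.1 and 40.1 at 2 months and 32.8, 36.1 and 36.1 at 5 months and rose in WT by 0.67 (difference -0.77, adjusted p = 0.0086).

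Stellate cell markers rose in 6 of 10 members and fell in 2. Colec11 was at 32.96, 33.4 and 34.4 at 2 months and 62.3, 57.1 and 57.7 at 5 months (0.81 ± 0.07, adjusted p = 5.7e-06), and Dcn, the proteoglycan decorin, rose by 0.59 ± 0.07. Hgf, the hepatocyte growth factor, fell by 0.87 and Reln by 0.59. Markers of activated myofibroblasts gave 1 rise (1 to 3), that of Lum (0.43 ± 0.12), among 7 tested (of 8), at a median of -0.04. Acta2, the gene of smooth muscle actin, was at 3.42, 6.95 and 4.17 at 2 months and 1.42, 3.18 and 3.22 at 5 months. Its libraries of both times did not overlap, but it was not called (-0.90 ± 0.37, adjusted p = 0.077). In WT Acta2 was not called either (0.64, adjusted p = 0.38). Fibrillar and other collagens showed 2 rises (Col1a2 0.50 ± 0.10, Col6a2 0.59 ± 0.12) and 2 falls (Col27a1 -1.33 ± 0.20, Col5a3 -0.66 ± 0.17, kept in 5 of 6 fits) among 20 (2 to 6 higher), against 8 higher and 1 lower once the length trend was taken out. Of 40 matrix proteins and modifiers 14 rose and 7 fell. Mmp14, a membrane-bound metalloproteinase, was at 37.9, 33.7 and 29.1 at 2 months and 54.4, 59.97 and 51.1 at 5 months (0.72 ± 0.10, adjusted p = 0.00022). Fn1 (fibronectin), which hepatocytes secrete into plasma, was at 2375, 2207 and 2271 at 2 months and 1157, 1331 and 1247 at 5 months (-0.88 ± 0.07, adjusted p = 4.7e-06), Timp3 fell by 0.80 and Lama5 by 1.41. TGF-beta and PDGF signaling had 3 of 22 tested (of 24) higher (1 to 3) and 5 lower (3 to 7). Cholangiocyte markers had 1 of 7 tested (of 8) higher (1 to 3) and 1 lower (0 to 1), and the cell cycle none of 26 tested (of 27) higher and 4 lower (1 to 4). No collagen, matrix, stellate or myofibroblast gene was called different from WT.

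Several programs of the hepatocyte itself were measured. Male-biased genes had 2 higher and 5 lower of 12, and 1 to 4 lower when each library was left out. Mup20, a urinary protein pheromone, was at 1240.4, 940.0 and 1206 at 2 months and 4013, 2849 and 3222 at 5 months (1.57 ± 0.16, adjusted p = 0.00028), whereas Nudt7 fell by 0.86 and Slco1a1, an organic anion importer, was at 536, 289.8 and 485 at 2 months and 187, 61.1 and 114 at 5 months (-1.86 ± 0.52, adjusted p = 0.049, kept in 1 of 6 fits). Female-biased genes were mostly too low, with 5 of 14 tested and 1 lower, Acot3. Of 24 HNF4A targets 45.8% were called, against 44.9% of all genes. Of these targets 9 were higher, among them Baat and Apoa4 (1.02 ± 0.13), and 2 lower, which became 4 and 5 without the length trend. Periportal genes had 1 of 10 higher and 3 lower (3 to 6, and 5 without the length trend). Hal, which opens histidine breakdown, was at 265, 278 and 295 at 2 months and 124, 122 and 139 at 5 months (-1.12 ± 0.07, adjusted p = 1.1e-06), and Gls2 fell by 0.48. Ctsc, the protease cathepsin C, differed from WT by -0.98, adjusted p = 0.0027. Pericentral genes had none of 14 higher and 5 lower, among them Cyp2e1 (-0.49 ± 0.08).

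Of sugar and amino acid genes, 47.1% were called in glycolysis, 31.25% in gluconeogenesis and glycogen and 33.3% in the urea cycle list. The share over all genes was 44.9%. Glycolysis had 7 of 17 higher and 1 lower, with a median of 0.31. Gluconeogenesis and glycogen had 3 of 16 higher and 2 lower. Ppp1r3b, which steers glycogen synthesis, was at 369, 367 and 311 at 2 months and 479, 556 and 476 at 5 months (0.53 ± 0.08, adjusted p = 0.00052). Of 18 urea cycle and amino acid genes 2 rose (1 to 3) and 4 fell (4 to 7), Hal among them, and 1 rose and 7 fell without the length trend. Of 19 cytochromes P450 of drug metabolism 3 rose (2 to 6) and 2 fell (2 to 3), with Cyp3a11 at 1661, 1881 and 1683 at 2 months and 3910.0, 2883 and 2307 at 5 months (0.80 ± 0.20, adjusted p = 0.021, kept in 3 of 6 fits). Cyp genes of 1 subfamily share sequence, and their counts are uncertain.

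Genes that glucocorticoids induce departed from WT in 2 members. Of 16 members 8 rose and 2 fell, with a median of 0.83, while WT had 5 higher and 2 lower with a median of 0.18. Fkbp5, a chaperone of the glucocorticoid receptor and among its most responsive targets, was at 24.3, 29.7 and 43.2 at 2 months and 86.2, 89.6 and 112 at 5 months (1.56 ± 0.25, adjusted p = 0.006). WT held 22.5, 21.98 and 23.03 at 2 months and 15.9, 16.7 and 17.2 at 5 months and fell (-0.44, adjusted p = 0.0025). The change differed by 2.00 ± 0.26, adjusted p = 0.0064, kept in all 12 fits that left out a library. Dusp1, a phosphatase of MAP kinases, was at 41.5, 50.3 and 38.8 at 2 months and 86.5, 68.4 and 80.2 at 5 months (0.85 ± 0.11, adjusted p = 0.00038), and its change differed by 1.28, adjusted p = 0.026. Cebpd rose by 0.80 ± 0.14, and Sgk1 and Per1 (a member of the clock list too) fell by 0.40 and 1.02. Immediate early genes, the first to respond to many stimuli, had 3 of 17 higher (2 to 6) and 3 lower (2 to 4). Of these the changes of 2 were called different from WT (0 to 3), Dusp1 and Junb. The change of Junb (16.9, 20.7 and 20.9 at 2 months and 31.7, 29.5 and 26.7 at 5 months, 0.59 ± 0.10, adjusted p = 0.00075) differed from WT by 0.82, adjusted p = 0.022.

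Outside the lists, the genes with the largest shifts from WT included a peptide transporter and a lipid transfer protein. Slc15a2, a peptide transporter, was at 7.04, 5.07 and 11.6 at 2 months and 2.26, 1.08 and 2.65 at 5 months (-2.02 ± 0.41, adjusted p = 0.0068) and in WT at 0.164, 0.412 and 0.254 at 2 months and 3.26, 3.79 and 3.65 at 5 months (3.65, adjusted p = 2e-05), so the genotypes moved in opposite directions (difference -5.66 ± 0.56, adjusted p = 0.00085). Osbpl3, a lipid transfer protein, was at 15.99, 11.5 and 13.1 at 2 months and 42.5, 46.02 and 52.7 at 5 months (1.79 ± 0.12, adjusted p = 4.7e-06) and in WT at 46.1, 86.4 and 67.01 at 2 months and 47.3, 59.4 and 56.9 at 5 months (difference 2.08 ± 0.31, adjusted p = 0.013). Cd300e, a receptor of myeloid cells, fell from 3.42, 2.56 and 2.90 to 1.37, 1.18 and 1.70 and rose in WT by 1.20 (difference -2.27 ± 0.31, adjusted p = 0.0027). Fam167a also went down, by 2.25, with a difference of -2.52, adjusted p = 0.011. These 4 differences were kept in all 12 fits that left out a library. Less steady were Rasl10b (difference 3.24, 7 of 12 fits), Abcc12 (2.70, 4 of 12), Mup8 (-5.15, 4 of 12), Sult5a1 (-2.61, 4 of 12) and Tfrc, the transferrin receptor (35.7, 46.5 and 29.2 at 2 months and 102, 77.4 and 82.1 at 5 months, difference 1.98, 2 of 12). Of the 238 genes called, 110 were called in both genotypes and 24 of those moved in opposite directions, while 85 were called in WT and not in libraries labelled PPARγ-KO.

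**Figure D5:**
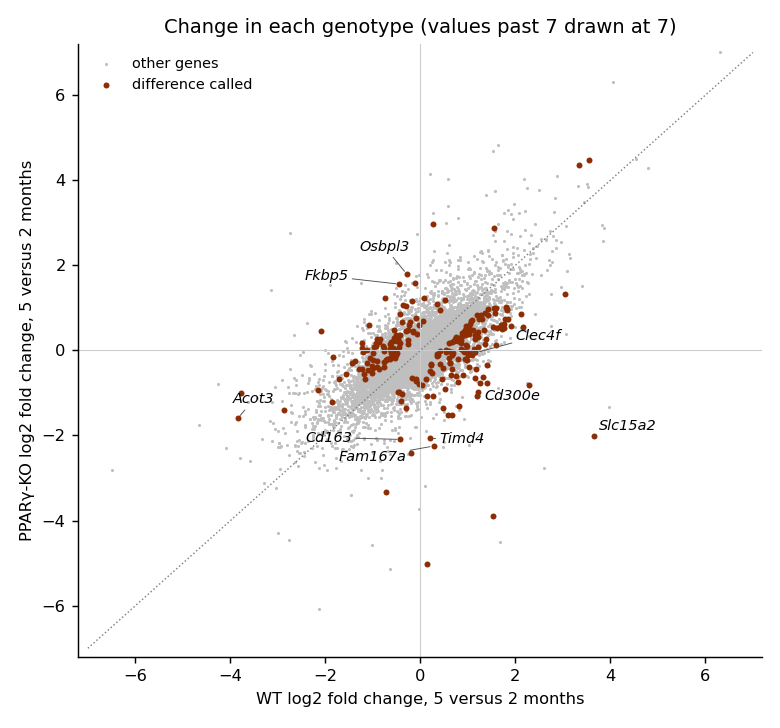
Log2 fold change, 5 versus 2 months, in WT (x) and in libraries labelled PPARγ-KO (y) for each gene tested, with the genes whose difference was called in colour and 9 of them named. Slc15a2 lies at 3.65 and -2.02, Fkbp5 at -0.44 and 1.56, and Clec4f at 1.00 and -0.10.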

How the data were processed

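Bulk RNA-seq gave 12 liver libraries, and 3 labelled PPARγ-KO at each time on FFD were compared. The values are counts per gene as deposited by the authors, 1 table per library, with no normalization. The methods of the study name STAR as the aligner and the submitters' processing notes name HISAT2, both with mm10, and the conflict could not be settled. The counting program, its annotation and its strand setting are not given in the sources used here, so overlapping and antisense genes cannot be told apart. Tables were joined by gene identifier (54532 genes, 28715 with a count, 0 columns not used). Total counts ran from 16367775 to 27452284, and no library was a duplicate of another of its group (chi-square per gene 9.40 to 17.5 between libraries labelled PPARγ-KO).

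Genes passed edgeR's filterByExpr, were scaled by TMM and tested with the robust quasi-likelihood test (edgeR 4.0.16, limma 3.58.1, R 4.3.3), with Benjamini-Hochberg adjustment over all genes tested and a threshold of 0.05. The PPARγ-KO and WT changes were fitted on 6 libraries each, and their difference on all 12. Each adjusted p in the text is from these fits, and values after ± are SE. The script was tested on simulated counts with known changes. DESeq2 1.42.0, no filter, library size scaling, the study's unadjusted rule, a replicate block and leaving out each library were alternatives, and removal of a trend on gene length was added after seeing the data.

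Gene lists and members were chosen with earlier results of these data known. The text names Pparg, the 12 largest rises and 12 largest falls among called protein-coding genes with at least 2 CPM in the higher group and no overlap (Gm and Rik names left out), 6 genes of each sign called both for the difference and in libraries labelled PPARγ-KO, called list members with the smallest adjusted p in each direction, the clock genes and 16 regulators. Other genes named, among them list members named for their difference from WT, were chosen after their values were seen. Promoter windows and protein-coding status came from RefSeq tables of GRCm38.p6, the build that mm10 names. A few genes that this rule names are not reported here.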

Additional observations from a re-analysis of the deposited data

Results flagged for a closer look

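The results below are those whose change between 2 and 5 months differed between libraries labelled PPARγ-KO and WT by edgeR's test of the difference itself (adjusted p under 0.05). Values are log2 differences, positive where the change was shifted upward in libraries labelled PPARγ-KO. Groups of 3 libraries are too small for a test of single libraries that stand apart.

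Among the genes with the largest changes, upward differences were found for Rasl10b (3.24), Abcc12 (2.70), Acot3 (2.25), Osbpl3 (2.08), Fkbp5 (2.00), Tfrc (1.98) and Lars2 (1.02). Downward differences were found for Slc15a2 (-5.66), Mup8 (-5.15), Sult5a1 (-2.61), Fam167a (-2.52), Cd300e (-2.27) and Timd4 (-2.27). Pparg itself differed by 0.62.

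Clock genes with a difference were Ciart (2.79), Cry2 (0.63) and Hlf (0.52). Stress-responsive Dusp1 (1.28) and Junb (0.82) were shifted upward as well. Lipid and bile acid genes with an upward difference were Acot4 (1.24), Lpin3 (0.83), Cyp8b1 (1.3) and Abcc2 (0.49).

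Markers of Kupffer cells and general macrophage genes with a downward difference were Clec4f (-1.10), Vsig4 (-1.19), Cd5l (-1.04), Folr2 (-1.81), Cd163 (-1.67), Csf1r (-0.92), C1qa (-0.86) and C1qc (-0.86). The endothelial genes Clec4g (-0.77) and Fcgr2b (-0.58), the chemokine gene Cxcl13 (-5.42) and the protease gene Ctsc (-0.98) were shifted the same way. So were the acute phase genes Saa3 (-1.71), Itih3 (-0.86), Hpx (-0.70), Itih4 (-0.70), Orm1 (-0.55) and Steap4 (-0.47).

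Ribosomal protein genes rose less than in WT for Rplp1 (-0.57), Rpsa (-0.48), Rps24 (-0.47), Rps14 (-0.46), Rpl11 (-0.45), Rpl32 (-0.41), Rps15 (-0.38) and Rps7 (-0.35). The calls for Rps7, Rps14, Tfrc, Abcc2 and Lpin3 held in no more than 2 of 12 fits that left out a library.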

How the results depend on the processing

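The number of genes called in libraries labelled PPARγ-KO (6502) stayed within 1.5 times under each alternative, with 5780 by DESeq2, 5647 without the trend on gene length, 6025 with the replicate block and 5374 to 6024 when each library was left out. Library size scaling gave 2741 higher and 3725 lower in place of 3287 and 3215. WT gave 5357 to 6968 calls over the same fits. The number of genes whose change differed from WT (238) was less steady. It was 594 by DESeq2, 793 with no filter, 1563 by the study's rule of an unadjusted p with a 1.3-fold change, and from 83 (without WT replicate 3 at 5 months) to 567 (without WT replicate 1 at 2 months) when each library was left out. It also fell to 96 without WT replicate 2 at 5 months, 117 and 144 without PPARγ-KO replicates 3 and 2 at 5 months, and 147 without PPARγ-KO replicate 1 at 2 months. Of the 238, 233 were also called by DESeq2, 180 with library size scaling, 175 without the length trend and 209 with the replicate block, which called 269. Libraries of different times come from different mice, and same-numbered libraries labelled PPARγ-KO deviated together with correlations of -0.006, 0.295 and -0.0095, so the block is not a pairing by animal.

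Changes near 0 turned sign under single settings: Nr1h3 to -0.055, Stat5b to 0.050, Cyp8b1 to -0.15 and Acaa2, the smallest rise among mitochondrial oxidation genes, to -0.092 without the length trend, and Foxo1 to -0.030 with library size scaling. Leaving out a library moved Foxo1 between -0.10 and 0.19, Cebpa between -0.11 and 0.062, Clec4f between -0.16 and 0.016, Vsig4 between -0.29 and 0.031, Itih4 between -0.14 and 0.026, Cyp8b1 between -0.089 and 0.16 and Lpin3 between -0.041 and 0.15. The cause was not tested.

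With 3 libraries per group, age, a possible batch and hour of collection cannot be told apart from time on diet, and genes with a few counts per library, such as Mt2, Tinag and Mup8, carry the widest counting error.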

Other observations

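The glycolytic gene Gapdh, looked at after its values were seen, varied widely within groups. It was at 11.2, 12.7 and 15.1 at 2 months and 70.2, 184 and 12.2 at 5 months CPM in libraries labelled PPARγ-KO and at 14.9, 156 and 16.5 at 2 months and 9.89, 7.69 and 10.3 at 5 months CPM in WT, with no call (2.77, adjusted p = 0.11). High libraries occurred in both genotypes and at both times, and many near-identical pseudogene copies make its count uncertain.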
